A study of Homo sapiens with 24 samples.

Results

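EGF receptor ligands and receptors were followed as a set of 9 named genes: the ligands HBEGF, AREG, EREG, TGFA, BTC and NRG1, the receptors EGFR and ERBB3, and the feedback inhibitor ERRFI1. This set and the gene lists below were chosen with earlier results of these data known. Such a choice can raise the share of genes called, so counts set beside all genes are descriptions. All 9 of 9 were matched by symbol among the 62703 gene identifiers counted in every library. T/C-28a2 cells, an immortalised human chondrocyte line, were profiled by poly(A) RNA-seq with 24 libraries in 6 groups (n = 4). The WT Ctr and WT Sor cells were untransfected cells of WT genotype kept in isotonic media or in media with 100 mM sorbitol for 7 days, a chronic hyperosmotic stress. WNK2 trans Ctr and WNK2 trans Sor cells were of WT genotype, were transfected with a WNK2 plasmid for 48 hours and then received the same media. WNK2- Ctr and WNK2- Sor cells carried a CRISPR deletion of exon 2 of WNK2, a kinase of the WNK family that senses osmolarity, and received the same media without transfection. The WNK2- line is 1 clone, so the deletion and the history of the clone cannot be told apart. The control cells were not transfected, so the plasmid, the transfection and WNK2 itself cannot be told apart either. The labels number the libraries of a group but do not say whether they came from separate cultures, and p-values measure only the spread between these libraries.

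Ligands of the EGF family are made as precursors in the cell membrane and are released by metalloproteases of the ADAM family. HBEGF, AREG, EREG, TGFA and BTC bind EGFR, and NRG1 binds ERBB3 and ERBB4. ERBB3 has little kinase activity of its own and signals by pairing with EGFR or ERBB2. ERRFI1, also called MIG6, binds the kinase domain of EGFR, and its gene is switched on by the pathway it restrains. EGFR signalling maintains the superficial cells of articular cartilage, and mice without the ERRFI1 orthologue develop joint degeneration.

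The sequences before the start sites of HBEGF, AREG and EREG are shown for the following reasons. Among the 6 ligands of the set HBEGF differed most between genotypes. AREG rose with sorbitol in all 3 backgrounds and EREG rose with it in WNK2- cells, while AREG and EREG lie side by side on chromosome 4. Each run is the 250 bases upstream of the RefSeq start site on the strand of the gene, from the RefSeq promoter table of GRCh38.p14, written 5′ to 3′, and capitals mark every match on either strand to TGACGTCA (a cyclic AMP response element), TATAAA (known as the TATA box) or CCGGAA (an ETS motif). TGANTCA (an AP-1 motif) was also searched. The EREG window is chr4:74364895-74365144 (plus strand), the AREG window chr4:74444886-74445135 (plus strand) and the HBEGF window chr5:140346604-140346853 (minus strand).
EREG: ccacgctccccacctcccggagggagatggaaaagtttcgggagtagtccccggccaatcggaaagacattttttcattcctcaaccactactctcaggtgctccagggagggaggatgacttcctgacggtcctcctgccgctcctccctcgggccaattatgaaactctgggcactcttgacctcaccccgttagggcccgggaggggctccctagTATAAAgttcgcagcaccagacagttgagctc
AREG: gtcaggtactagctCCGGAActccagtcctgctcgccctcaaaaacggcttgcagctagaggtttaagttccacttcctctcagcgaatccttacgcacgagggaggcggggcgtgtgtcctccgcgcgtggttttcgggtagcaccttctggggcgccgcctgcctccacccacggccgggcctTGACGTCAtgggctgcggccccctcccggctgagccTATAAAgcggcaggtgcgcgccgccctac
HBEGF: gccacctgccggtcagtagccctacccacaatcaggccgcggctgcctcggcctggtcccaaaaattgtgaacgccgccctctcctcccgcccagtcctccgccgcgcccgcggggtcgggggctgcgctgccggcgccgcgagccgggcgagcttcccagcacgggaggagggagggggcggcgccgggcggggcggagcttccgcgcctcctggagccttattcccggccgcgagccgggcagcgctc

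TATAAA stood at bases -32 to -27 from the start in EREG and at -29 to -24 in AREG. AREG also held TGACGTCA at -65 to -58 and CCGGAA at -236 to -231. None of these letters was in the HBEGF window, and TGANTCA was in none of the 3 windows shown. Among 35116 windows of the same length, 10.7% held TATAAA, 1.65% TGACGTCA, 14.5% CCGGAA and 6.57% TGANTCA. A window was found for 7 of the 9 genes, and ERBB3 and NRG1 are named only. In GENCODE 29 on GRCh38, EREG spans chr4:74365143-74388751, AREG chr4:74445134-74455009 and BTC chr4:74744759-74794686, with 56382 bases between EREG and AREG. HBEGF spans chr5:140332843-140346631, TGFA chr2:70447280-70554193, NRG1 chr8:31639386-32767959, EGFR chr7:55019021-55211628, ERBB3 chr12:56076799-56103505 and ERRFI1 chr1:8004404-8026308.

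Total counts ran from 14153002 to 25664619 per library, with a median of 17506505.5. WNK2 itself did not follow the labels: its reads numbered 1217 to 2568 per library labelled WT Ctr but 163 to 290 per library labelled WNK2 trans Ctr. They numbered 2237 to 3739 in WNK2 trans Sor but 266 to 314 in WT Sor, and 322 to 503 over both WNK2- groups. The libraries labelled WT Sor, which are of WT genotype, thus overlapped WNK2- Sor in normalised WNK2 counts (log2 fold change of WNK2- Sor against WT Sor 0.25, SE 0.20, adjusted p = 0.33) and held less than WT Ctr (−3.06, SE 0.21, adjusted p = 1.52e-10). The order of WNK2 among the 4 groups of WT genotype puts their labels in doubt, WNK2 trans Sor included, since the counts do not show which labels are wrong. The paper reports no significant change of WNK2 with sorbitol or transfection, unlike these counts. Its values are high in all 4 groups of WT genotype, so they do not settle which labels are wrong. No comparison of WNK2- with WT cells uses undoubted libraries of untransfected cells. For the 9 genes, calls of WNK2- Ctr or WT Sor against WT Ctr are therefore given beside the other isotonic group of WT genotype. The gene lists below are also counted against both isotonic groups between genotypes. Single genes outside the 9 are set against WT Ctr only, unless another group is named. WNK2- Sor was likewise set against WNK2 trans Sor, a comparison chosen after seeing the data. There the groups also differ by transfection, and the label WNK2 trans Sor is itself in doubt. Reads were counted over the whole WNK2 gene, so these counts do not show whether exon 2 is present. Of 13 chondrocyte markers, 9 or 10 reached 10 counts in a library of each group, with 4 to 224 reads on COL2A1 and ACAN and none on SOX9, which lies under another annotated gene. Their summed normalised count was 1337 to 2954 in the 4 groups of WT genotype and 509 to 609 in the WNK2- groups. The summed count of 4 endothelial markers was 423 to 1943, that of 6 epithelial markers 78.4 to 190.4 and that of 4 leukocyte markers 0 to 9.56. The part of these marker levels in the results was not tested. In bulk RNA, fewer cells expressing a gene and less of its RNA per cell cannot be told apart.

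Levels are given as normalised counts, the reads of a gene over the TMM effective library size from edgeR, brought to the average such size of all 24 libraries. Differences are log2 fold changes with their standard error (SE) from edgeR's quasi-likelihood test, and a gene is called when its Benjamini-Hochberg adjusted p over all 16600 tested genes is under 0.05. Of the 9 genes, 8 passed the filter on low counts and were tested, and BTC did not pass.

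Between WNK2- and WT cells, ligand and receptor genes moved in both directions. In isotonic media 7 of the 8 tested genes were called between WNK2- Ctr and the libraries labelled WT Ctr, where 42.1% of all tested genes were called (20.7% higher, 21.5% lower): HBEGF, NRG1, EGFR and AREG were higher and ERBB3, TGFA and ERRFI1 lower. Against the libraries labelled WNK2 trans Ctr, 6 of 8 were called beside 47.7% of all genes (24% higher, 23.7% lower), and AREG was the gene that did not pass there. Under sorbitol 6 of 8 were called between WNK2- Sor and WT Sor, where 46.3% of all genes were called (23.7% higher, 22.7% lower): HBEGF, NRG1 and EREG were higher and ERBB3, TGFA and ERRFI1 lower. The median log2 fold change over the 8 genes was 0.47 against WT Ctr and 0.21 against WT Sor, beside 0.00 and 0.02 over all tested genes. It was 0.32 against WNK2 trans Ctr and −0.07 against WNK2 trans Sor. Against WNK2 trans Sor in place of WT Sor, 4 of 8 were called, beside 33.3% of all genes (16.3% higher, 17.0% lower): HBEGF and EREG were higher and ERBB3 and ERRFI1 lower, and NRG1 and TGFA, called against WT Sor, did not pass. Every gene called against WT Ctr, WNK2 trans Ctr or WT Sor also had groups that did not overlap. Such genes made up 36.9% of all tested genes against WT Ctr, 47.5% against WNK2 trans Ctr and 53.9% under sorbitol.

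Sorbitol moved fewer of them in WT and WNK2- cells. In WT Sor against WT Ctr, 4 of 8 were called (AREG, EGFR, NRG1 and ERRFI1, all higher), where 24.1% of all genes were called (11.4% higher, 12.7% lower). Against the libraries labelled WNK2 trans Ctr, WT Sor had 4 of 8 called and higher (AREG, EGFR, NRG1 and HBEGF), beside 15.1% of all genes (8.74% higher, 6.31% lower). In WNK2- Sor against WNK2- Ctr, 4 of 8 were called (AREG, EREG, NRG1 and ERRFI1, all higher), where 14.9% of all genes were called (8.25% higher, 6.64% lower). In WNK2 trans Sor against WNK2 trans Ctr all 8 tested genes were called, 5 higher and 3 lower. That comparison called 48% of all genes (24.3% higher, 23.7% lower), and the labels of both groups are in doubt. The groups did not overlap for 4 of the 8 genes in WT cells, beside 25.7% of all genes, for 4 in WT Sor against WNK2 trans Ctr, also beside 25.7%, for 5 in WNK2- cells, beside 28.4%, and for 6 between the transfection labels, beside 34.4%.

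The transfection label was set against untransfected cells in each medium. In isotonic media 3 of 8 genes were called between the libraries labelled WNK2 trans Ctr and WT Ctr, where 12.5% of all genes were called (5.57% higher, 6.98% lower), with ERRFI1 higher and HBEGF and NRG1 lower. Under sorbitol 6 of 8 were called between WNK2 trans Sor and WT Sor, where 31.7% of all genes were called (16.1% higher, 15.5% lower), with NRG1, HBEGF and AREG higher and TGFA, ERBB3 and ERRFI1 lower. This count is not firm. It was 3 without WT Sor replicate 1, 2 or 4, WNK2 trans Ctr replicate 2 or WNK2 trans Sor replicate 1 or 2, and NRG1, HBEGF and TGFA were the 3 genes whose calls held in every alternative analysis. Against the libraries labelled WT Ctr, WNK2 trans Sor had 7 of 8 called, 5 higher and 2 lower, beside 39.2% of all genes (19.8% higher, 19.5% lower). The groups did not overlap for 2 of the 8 genes in isotonic media, beside 12.3% of all genes, for 4 under sorbitol, beside 30.3%, and for 6 between WNK2 trans Sor and WT Ctr, beside 23.6%. These comparisons share libraries with each other and are not independent. Whether the sorbitol effect differed was tested by interactions. That with transfection called 4 of the 8 genes (HBEGF and NRG1 higher, TGFA and ERRFI1 lower), beside 35.5% of all genes (18.1% higher, 17.4% lower). That with genotype called 1 gene, EGFR, which was lower, beside 8.65% of all genes (3.99% higher, 4.66% lower).

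**Figure D1:**
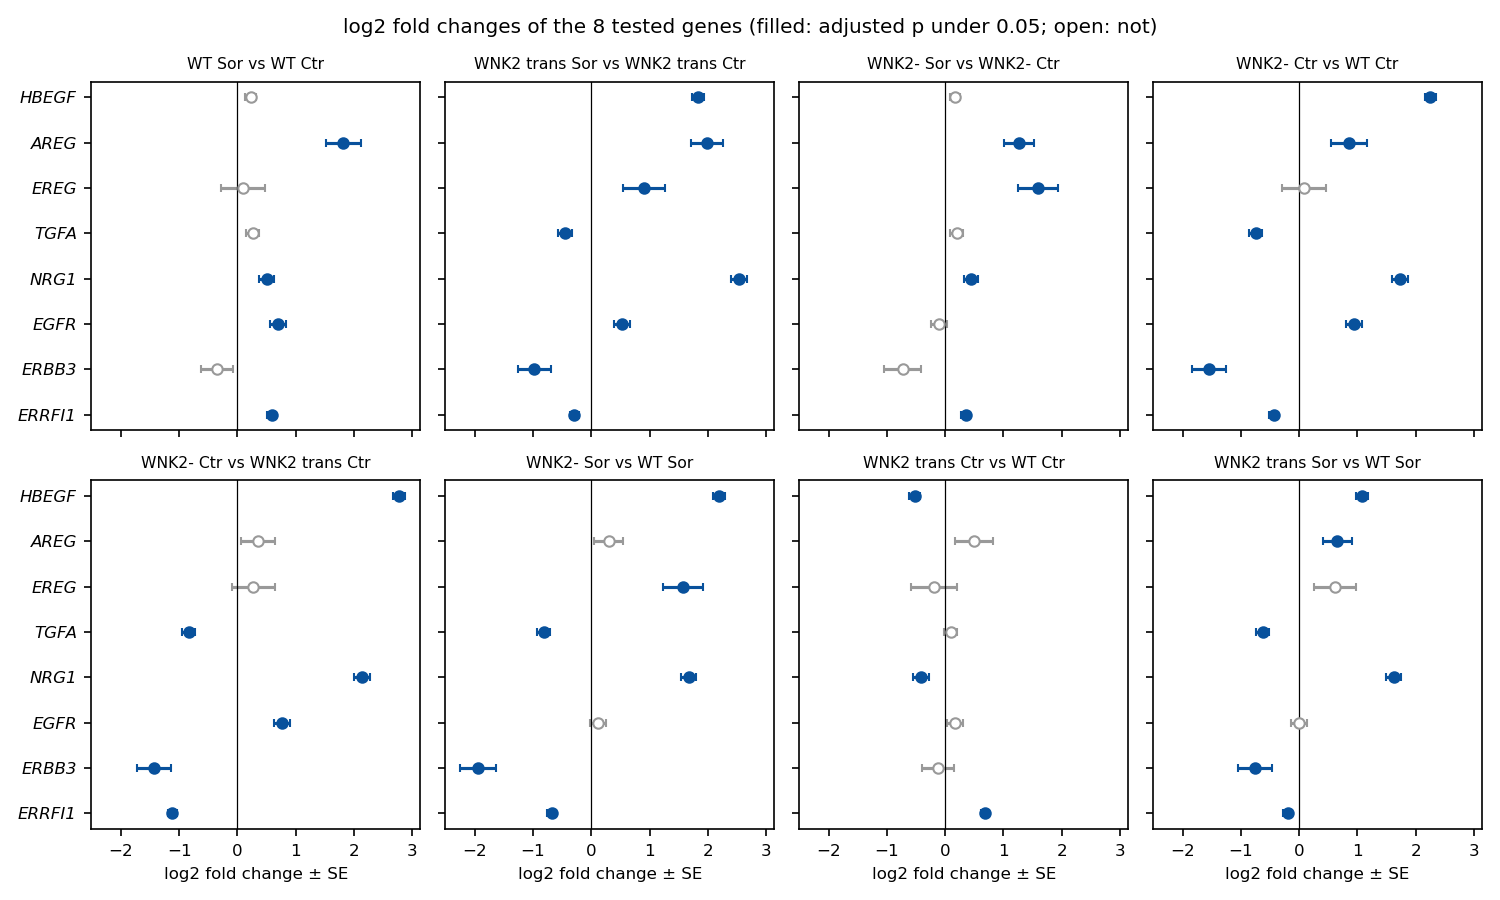
Log2 fold changes with standard errors of the 8 tested genes in 8 comparisons; filled points had an adjusted p under 0.05. HBEGF and NRG1 lie to the right in all comparisons of WNK2- with WT genotype and in WNK2 trans Sor against WT Sor, and ERBB3 and TGFA lie to the left in the same panels.

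HBEGF, a heparin-binding ligand of EGFR, differed most between genotypes among the 6 ligands of the set. The libraries labelled WT Ctr held 292, 319.7, 230.4 and 291 normalised counts and those labelled WNK2 trans Ctr 188, 173, 213 and 214. WNK2- Ctr held 1429.8, 1375, 1209 and 1386. Every WNK2- Ctr library was thus more than 3 times as high as every isotonic library of WT genotype. The log2 fold change was 2.25 (SE 0.10, adjusted p = 4.18e-15) against WT Ctr, a 4.77-fold difference, and 2.78 (SE 0.10, adjusted p = 5.97e-17) against WNK2 trans Ctr.

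Under sorbitol HBEGF was 324, 305, 351 and 345 in WT Sor and 1442, 1479.9, 1539 and 1611 in WNK2- Sor, a log2 fold change of 2.19 (SE 0.10, adjusted p = 2.31e-15). WNK2 trans Sor held 704, 723, 704 and 672, between these groups and apart from both. WNK2- Sor was 2.17-fold higher than WNK2 trans Sor (log2 fold change 1.12, SE 0.09, adjusted p = 7.83e-10), and every WNK2- library lay above every library of WT genotype. WNK2 trans Sor was 2.11-fold higher than WT Sor (log2 fold change 1.08, SE 0.10, adjusted p = 5.11e-09). With sorbitol alone the log2 fold change of HBEGF was 0.17 (SE 0.09, adjusted p = 0.247) in WNK2- cells. In WT Sor against WT Ctr it was 0.23 (SE 0.10, adjusted p = 0.0931), where the groups overlapped. Without WT Ctr replicate 2 this WT value was 0.30 with an adjusted p of 0.0424, in a range of 0.0374 to 0.252 over its alternatives. Against the libraries labelled WNK2 trans Ctr, WT Sor was higher by 0.75 (SE 0.10, adjusted p = 6.67e-06), and these groups did not overlap. The sorbitol change in WT cells thus depends on which isotonic group is taken. Between the libraries labelled WNK2 trans Ctr and WNK2 trans Sor the sorbitol effect was 1.83 (SE 0.10, adjusted p = 1.3e-13). The difference between the sorbitol effects in transfected and untransfected cells was 1.61 (SE 0.14, adjusted p = 2.25e-09). Both values rest on libraries whose labels are in doubt. HBEGF was 0.53 lower on the log2 scale in WNK2 trans Ctr than in WT Ctr (SE 0.10, adjusted p = 0.000697), a call that a fit of these groups alone did not give (adjusted p = 0.0727). The genotype did not show a different sorbitol effect, with an interaction of −0.06 (SE 0.13, adjusted p = 0.84).

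NRG1, a neuregulin that binds ERBB3 and ERBB4, followed HBEGF in genotype and was called higher with sorbitol in every background. It had 222, 193, 285 and 304 normalised counts in the libraries labelled WT Ctr, 196, 199.9, 155 and 201 in those labelled WNK2 trans Ctr and 377, 355, 347 and 343 in WT Sor. WNK2- Ctr held 767, 896, 866 and 805 and WNK2- Sor 1178, 1050.5, 1094 and 1218. WNK2 trans Sor held 858, 1057, 1149.8 and 1308, which overlapped both WNK2- groups. The 3 higher groups were apart from the 3 lower groups without exception.

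Between genotypes NRG1 was 3.32-fold higher in WNK2- Ctr than in WT Ctr (log2 fold change 1.73, SE 0.13, adjusted p = 1.18e-10) and 3.19-fold higher in WNK2- Sor than in WT Sor (1.68, SE 0.13, adjusted p = 8.08e-11). Against WNK2 trans Sor, WNK2- Sor differed by 0.05 (SE 0.12, adjusted p = 0.779). Against WNK2 trans Ctr the isotonic log2 fold change was 2.15 (SE 0.13, adjusted p = 1.69e-12). WNK2 trans Sor was 3.08-fold higher than WT Sor (log2 fold change 1.62, SE 0.13, adjusted p = 7.27e-10). Sorbitol raised NRG1 by 0.50 on the log2 scale in WT cells (SE 0.13, adjusted p = 0.00746), by 0.45 in WNK2- cells (SE 0.12, adjusted p = 0.0149) and by 2.54 between the transfection labels (SE 0.14, adjusted p = 9.91e-14). The WNK2- call was lost without WNK2- Ctr replicate 1 (0.40, adjusted p = 0.0623) or WNK2- Sor replicate 4 (0.41, adjusted p = 0.0534), in a range of 0.000342 to 0.0623. The sorbitol effect differed by 2.03 (SE 0.19, adjusted p = 6.45e-09) between transfected and untransfected cells and by −0.06 (SE 0.18, adjusted p = 0.888) between genotypes. NRG1 was 0.41 lower on the log2 scale in WNK2 trans Ctr than in WT Ctr (SE 0.14, adjusted p = 0.0472), with overlapping groups. That call was lost in 23 of 31 alternatives (adjusted p 0.0117 to 0.233), among them 20 that left out 1 library: WT Ctr replicate 3 or 4, WNK2 trans Sor replicate 2 or 3, or any library of WNK2 trans Ctr, WT Sor or the WNK2- groups.

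**Figure D2:**
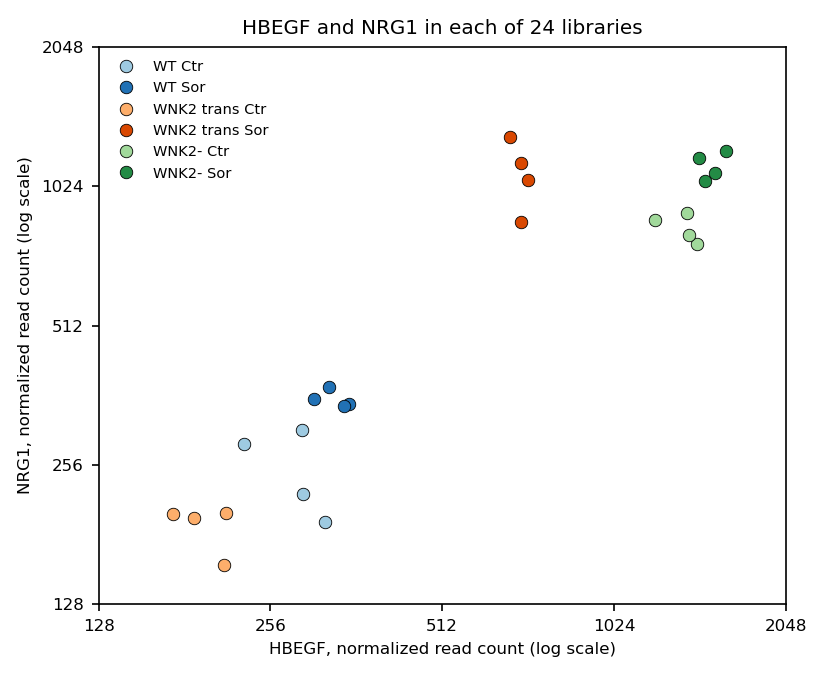
Normalised read counts of HBEGF (horizontal, log scale) and NRG1 (vertical, log scale) in each of 24 libraries, coloured by group. The 12 libraries of WNK2-, in either medium, and WNK2 trans Sor start at 672 on HBEGF and 767 on NRG1, and the other 12 end at 351 and 377.

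HBEGF and NRG1 correlated at Pearson's r = 0.91 and Spearman's rho = 0.84 over the 24 libraries, which fall into 6 groups, as the plot of both genes shows. Once group means were removed, r was −0.47, so the likeness lies between groups. They were the 2 tested members called higher in WNK2- cells in both media and in WNK2 trans Sor against WT Sor, a pattern that 6.44% of all tested genes shared. The lower pattern held ERBB3, ERRFI1 and TGFA, beside 6.49% of all genes. EGFR and NRG1 correlated at r = 0.79, and at 0.80 with group means removed, over the same libraries.

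AREG, amphiregulin, was counted at low levels and rose with sorbitol in every background. Normalised counts were 25.3, 15.4, 10.8 and 13.3 in the libraries labelled WT Ctr and 65.3, 40.6, 72.0 and 51.0 in WT Sor. They were 27.5, 35.6, 28.4 and 25.8 in WNK2- Ctr and 62.8, 75.9, 84.0 and 59.8 in WNK2- Sor. In both backgrounds the sorbitol libraries lay above the isotonic libraries without overlap. The libraries labelled WNK2 trans Ctr held 11.2, 19.7, 25.9 and 34.5, and WNK2 trans Sor 98.7, 85.3, 113 and 66.1.

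The log2 fold change of AREG with sorbitol was 1.82 in WT cells (SE 0.30, adjusted p = 9.04e-05), 1.26 in WNK2- cells (SE 0.26, adjusted p = 0.00132) and 1.98 between the transfection labels (SE 0.28, adjusted p = 1.94e-06). Against the libraries labelled WNK2 trans Ctr, WT Sor was higher by 1.33 (SE 0.28, adjusted p = 0.00164). Neither interaction passed: that with genotype was −0.56 (SE 0.40, adjusted p = 0.421) and that with transfection 0.16 (SE 0.42, adjusted p = 0.791). AREG and NRG1 were the 2 members called higher with sorbitol in all 3 backgrounds, beside 2.38% of all tested genes. Between genotypes AREG differed by 0.85 in isotonic media (SE 0.31, adjusted p = 0.0278), by 0.36 against WNK2 trans Ctr (SE 0.29, adjusted p = 0.321) by 0.30 under sorbitol (SE 0.25, adjusted p = 0.355) and by −0.36 against WNK2 trans Sor (SE 0.25, adjusted p = 0.279). The first call was lost without WT Ctr replicate 2, 3 or 4 or WNK2- Ctr replicate 2 (0.70 to 0.83, adjusted p 0.0584 to 0.0942), in a range of 0.00745 to 0.0942. AREG was 0.66 higher in WNK2 trans Sor than in WT Sor (SE 0.25, adjusted p = 0.0485). The call was lost in 19 of 30 alternatives, 16 of them with 1 library left out (WT Ctr replicate 4, WT Sor replicate 1, 2 or 4, WNK2 trans Ctr replicate 2, WNK2 trans Sor replicate 1, 2 or 3, or any WNK2- library), and its adjusted p ran from 0.0231 to 0.155.

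EREG, epiregulin, the neighbour of AREG on chromosome 4, was higher in WNK2- Sor than in any other group. It had 65.6, 61.7, 57.0 and 74.8 normalised counts there and 23.7, 21.0, 29.3 and 11.7 in WNK2- Ctr. WT Sor held 24, 10.8, 21.3 and 29.6 and the libraries labelled WT Ctr 14.5, 27.2, 13.0 and 26.5. WNK2- Sor thus lay apart from the rest, and these other groups overlapped. The highest library outside WNK2- Sor was in WNK2 trans Sor, which held 22.9, 35.1, 49.7 and 24.8, and the libraries labelled WNK2 trans Ctr held 32.3, 12.3, 11.2 and 16.1.

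With sorbitol EREG rose by 1.59 on the log2 scale in WNK2- cells (SE 0.34, adjusted p = 0.00154) and moved by 0.10 in WT cells (SE 0.38, adjusted p = 0.885). The difference between these effects, 1.50 (SE 0.51, adjusted p = 0.0652), did not pass. It passed without WT Ctr replicate 1 (1.62, adjusted p = 0.0479) or WNK2 trans Ctr replicate 1 (1.48, adjusted p = 0.0481), in a range of 0.026 to 0.164. WNK2- Sor was 2.99-fold higher than WT Sor (log2 fold change 1.58, SE 0.34, adjusted p = 0.000468) and 1.95-fold higher than WNK2 trans Sor (0.96, SE 0.33, adjusted p = 0.0251), whereas WNK2- Ctr and WT Ctr differed by 0.08 (SE 0.37, adjusted p = 0.883). Between the transfection labels sorbitol gave 0.91 (SE 0.37, adjusted p = 0.0435) with overlapping groups. That call was lost in 15 of 30 alternatives (adjusted p 0.00611 to 0.181), 12 of them with 1 library left out: WT Sor replicate 1 or 3, WNK2 trans Ctr replicate 2, 3 or 4, WNK2 trans Sor replicate 2 or 3, WNK2- Ctr replicate 1 or 2, or WNK2- Sor replicate 1, 2 or 4.

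TGFA, transforming growth factor alpha, was the EGFR ligand that was lower in WNK2- cells than in WT Ctr, WNK2 trans Ctr and WT Sor. WNK2- Ctr held 203, 216, 262 and 241 normalised counts and WNK2- Sor 263, 242, 278 and 274. The libraries labelled WT Ctr held 346, 407, 459.7 and 332, those labelled WNK2 trans Ctr 451, 418, 349 and 431, and WT Sor 462, 477, 479 and 445. All 8 WNK2- libraries lay under all 12 of these. WNK2 trans Sor, at 269.5, 330.2, 309 and 296, lay under them too and overlapped WNK2- Sor.

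The log2 fold change of TGFA was −0.75 for WNK2- Ctr against WT Ctr (SE 0.11, adjusted p = 1.05e-05), −0.84 against WNK2 trans Ctr (SE 0.11, adjusted p = 1.29e-06) and −0.82 for WNK2- Sor against WT Sor (SE 0.11, adjusted p = 1.65e-06), but −0.19 for WNK2- Sor against WNK2 trans Sor (SE 0.11, adjusted p = 0.214). WNK2 trans Sor was lower than WT Sor by −0.63 (SE 0.11, adjusted p = 0.000141). Sorbitol gave 0.27 in WT cells (SE 0.11, adjusted p = 0.085) and 0.20 in WNK2- cells (SE 0.11, adjusted p = 0.288), and neither passed. Without WT Ctr replicate 3 the WT value was 0.38 with an adjusted p of 0.0206, in a range of 0.0206 to 0.201. Between the transfection labels sorbitol gave −0.45 (SE 0.11, adjusted p = 0.00199), and the difference from the effect in untransfected cells was −0.72 (SE 0.16, adjusted p = 0.00103). Against the libraries labelled WT Ctr, WNK2 trans Sor was lower by −0.36 (SE 0.11, adjusted p = 0.0143). Leaving out WT Ctr replicate 3 ended that call (−0.26, adjusted p = 0.0778) in a range of 0.00689 to 0.158.

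BTC, betacellulin, was close to absent from these counts. No read fell on it in the 4 libraries labelled WT Ctr, and the other 20 libraries held 0 to 6 reads. WT Sor held 0, 0, 0 and 2 reads, WNK2 trans Ctr 0, 1, 0 and 0, WNK2 trans Sor 0, 0, 6 and 4, WNK2- Ctr 0, 2, 1 and 1 and WNK2- Sor 0, 3, 2 and 3. A count of 0 leaves room for up to 3 reads in a library, which covers counting error only. BTC did not pass the filter on low counts, so its differences were not tested in the main fit.

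**Figure D3:**
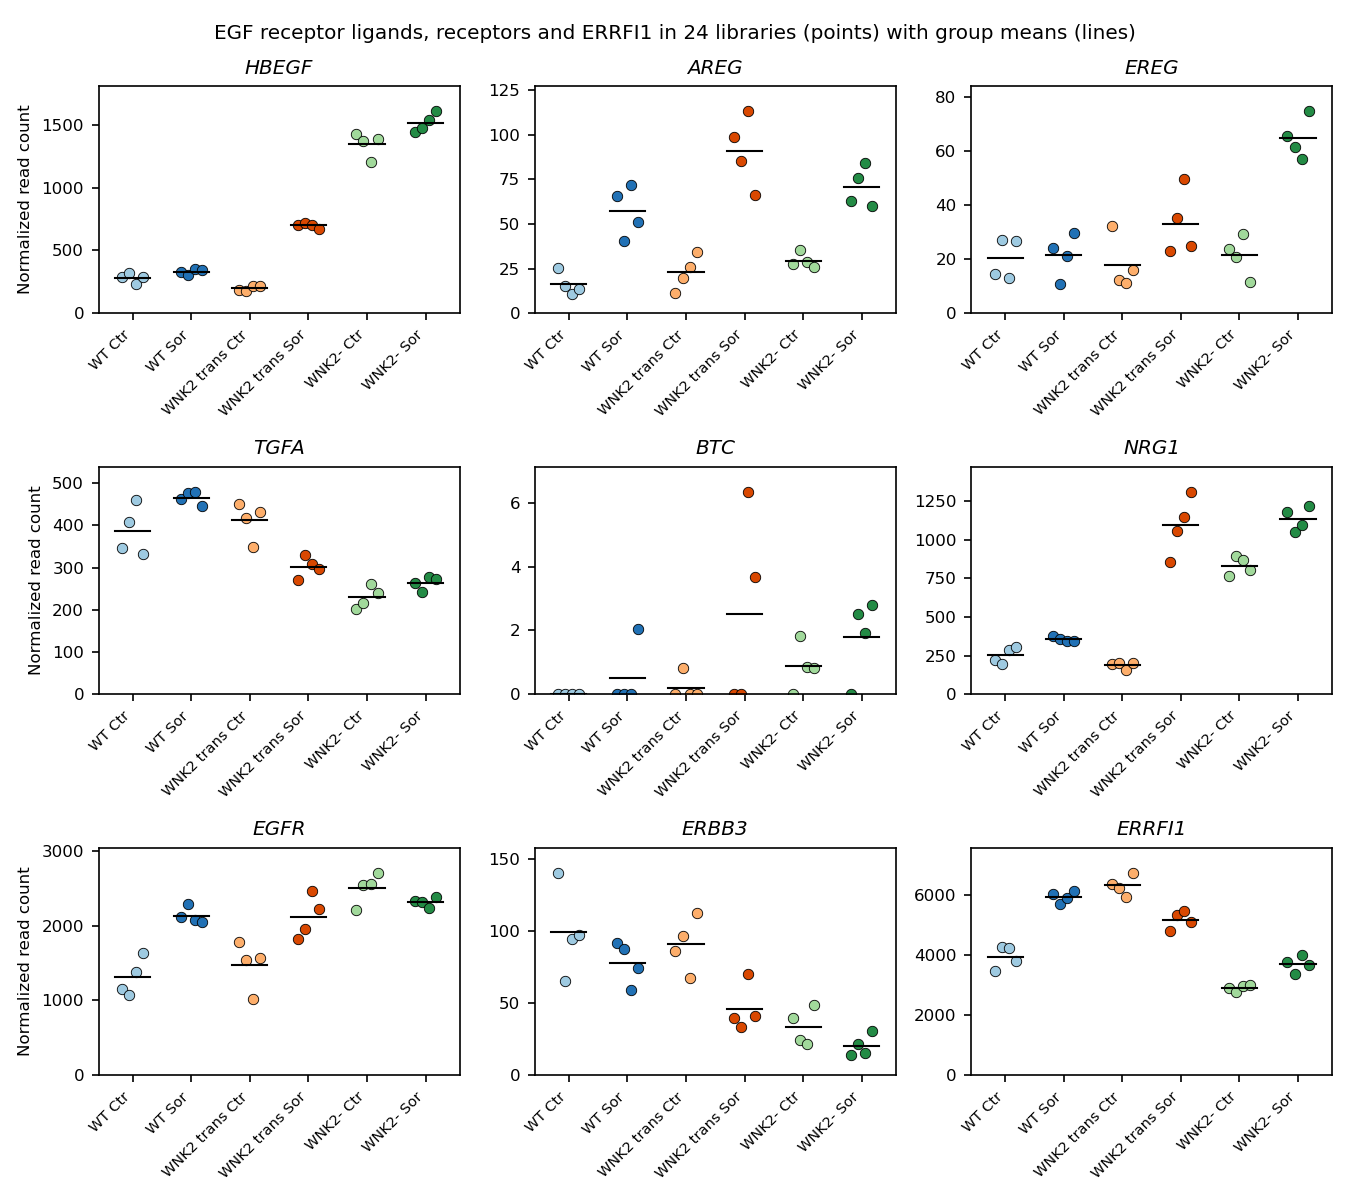
Normalised read counts of the 9 genes, a panel for each gene with its own vertical scale from 0, in 6 groups of 4 libraries; points are libraries and lines are group means. HBEGF and NRG1 are high in both WNK2- groups and in WNK2 trans Sor, EREG stands out in WNK2- Sor, and ERBB3 and TGFA are low in the WNK2- groups.

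EGFR, the receptor of 5 of the 6 ligands, was lowest in the isotonic groups of WT genotype. The libraries labelled WT Ctr held 1149, 1067, 1378 and 1634 normalised counts and those labelled WNK2 trans Ctr 1779.6, 1543, 1012 and 1565. WT Sor held 2111, 2283, 2076 and 2050.1 and WNK2 trans Sor 1818, 1960.3, 2462 and 2223. All 8 of these sorbitol libraries lay above all 8 isotonic ones. WNK2- Ctr held 2202, 2541, 2551 and 2699.8 and WNK2- Sor 2332, 2319, 2231 and 2384, and here the media overlapped.

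In isotonic media EGFR was 1.91-fold higher in WNK2- Ctr than in WT Ctr (log2 fold change 0.94, SE 0.14, adjusted p = 5.52e-06) and 1.69-fold higher than in WNK2 trans Ctr (0.76, SE 0.14, adjusted p = 5.56e-05). Under sorbitol WNK2- cells differed by 0.12 from WT Sor (SE 0.14, adjusted p = 0.491) and by 0.13 from WNK2 trans Sor (SE 0.14, adjusted p = 0.493). Sorbitol raised EGFR by 0.70 in WT cells (SE 0.14, adjusted p = 0.000566), and WT Sor lay above WNK2 trans Ctr by 0.53 (SE 0.14, adjusted p = 0.00858). In WNK2- cells the change was −0.11 (SE 0.14, adjusted p = 0.666). The difference between the 2 sorbitol effects was −0.81 (SE 0.19, adjusted p = 0.00849), and EGFR was the only member whose genotype by sorbitol interaction passed. It passed in all 31 alternatives, with an adjusted p of 0.00125 to 0.0216. WNK2 trans Sor and WT Sor differed by −0.01 (SE 0.14, adjusted p = 0.967), and sorbitol between the transfection labels gave 0.52 (SE 0.14, adjusted p = 0.00284).

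ERBB3, the receptor of NRG1, was lower in WNK2- cells. The libraries labelled WT Ctr held 139.9, 65.1, 94.1 and 96.9 normalised counts, those labelled WNK2 trans Ctr 85.8, 96.7, 67.5 and 113, and WT Sor 91.5, 87.2, 58.8 and 74.5. WNK2- Ctr held 39.8, 24.6, 21.6 and 48.3 and WNK2- Sor 13.7, 21.7, 15.5 and 30.8. All 8 WNK2- libraries lay under these 12. WNK2 trans Sor, at 39.7, 33.1, 69.7 and 41.3, overlapped WT Sor on one side and WNK2- Ctr on the other.

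The log2 fold change of ERBB3 was −1.55 between WNK2- Ctr and WT Ctr (SE 0.29, adjusted p = 0.000124), −1.43 against WNK2 trans Ctr (SE 0.29, adjusted p = 0.000238) and −1.94 between WNK2- Sor and WT Sor (SE 0.31, adjusted p = 1.14e-05), a 3.84-fold difference. Against WNK2 trans Sor it was −1.18 (SE 0.32, adjusted p = 0.00513). Sorbitol gave −0.35 in WT cells (SE 0.28, adjusted p = 0.394) and −0.73 in WNK2- cells (SE 0.32, adjusted p = 0.136), and neither passed. Between the transfection labels it gave −0.98 (SE 0.29, adjusted p = 0.00663). WNK2 trans Sor differed from WT Sor by −0.76 (SE 0.29, adjusted p = 0.0464), a call lost in 11 of 31 alternatives (adjusted p 0.0134 to 0.138), 9 of them with 1 library left out: WT Ctr replicate 4, WT Sor replicate 1, 2 or 4, WNK2 trans Ctr replicate 2, WNK2 trans Sor replicate 1, 2 or 4, or WNK2- Sor replicate 2. Of the 74 tested genes within 2 Mb of ERBB3, 28 were lower and 5 higher in WNK2- Ctr than in WT Ctr, with a median log2 fold change of −0.22, and 34 were lower and 6 higher under sorbitol, with a median of −0.27. The 53 tested genes within 2 Mb of HBEGF had a median of −0.17 in isotonic media and −0.12 under sorbitol. For NRG1, with 22 such genes, the medians were −0.36 and −0.14. The part of gene position in these results was not tested.

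The other receptors of the family were ERBB2, the partner of ERBB3, and ERBB4. The normalised counts of ERBB2 were 1240.3, 1268, 1186 and 1273 in WNK2- Ctr and 760.0, 945, 651 and 778 in WNK2- Sor. They were 2381, 1571, 1921 and 2132 in WT Ctr and 2135, 2029.8, 1923 and 2017 in WT Sor. WNK2 trans Ctr held 2597, 2589.9, 2927 and 2603 and WNK2 trans Sor 1303, 624, 1007 and 1014. The log2 fold change was −0.69 between WNK2- Ctr and WT Ctr (SE 0.15, adjusted p = 0.000566), −1.37 between WNK2- Sor and WT Sor (SE 0.15, adjusted p = 4.25e-08) and −1.04 between WNK2 trans Sor and WT Sor (SE 0.15, adjusted p = 7.96e-06), but −0.33 between WNK2- Sor and WNK2 trans Sor (SE 0.15, adjusted p = 0.0919). With sorbitol ERBB2 moved by 0.02 in WT Sor against WT Ctr (SE 0.15, adjusted p = 0.947), by −0.40 in WT Sor against WNK2 trans Ctr (SE 0.15, adjusted p = 0.0662) and by −0.66 in WNK2- cells (SE 0.15, adjusted p = 0.00271). Between the transfection labels it moved by −1.44 (SE 0.15, adjusted p = 2.18e-08). The genotype by sorbitol interaction of −0.68 (SE 0.21, adjusted p = 0.0423) uses WT Ctr. ERBB4, the other neuregulin receptor, had no read in the 4 libraries labelled WT Ctr and 6, 16, 11 and 11 reads in WNK2- Ctr, at least 10.8-fold higher against a floor of 3 counts over the group (adjusted p = 8.55e-05). It had 2, 3, 0 and 2 reads in WT Sor and 28, 14, 15 and 15 in WNK2- Sor (log2 fold change 2.89, SE 0.62, adjusted p = 0.000583), and 0 to 4 reads in every library of WNK2 trans Ctr and WNK2 trans Sor.

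Among the ligands outside the 9 genes, EGF itself was higher in WNK2- cells, by 2.07 on the log2 scale against WT Ctr (SE 0.30, adjusted p = 5.21e-06), by 1.28 against WT Sor (SE 0.28, adjusted p = 0.000488) and by 1.50 against WNK2 trans Sor (SE 0.28, adjusted p = 0.000178), from 7 to 18 reads in WT Ctr to 63 to 87 in WNK2- Ctr. NRG2 was higher in WNK2 trans Sor (1.09, SE 0.23, adjusted p = 0.000633) and in WNK2- Sor (1.02, SE 0.23, adjusted p = 0.000547) than in WT Sor, and these groups differed from each other by −0.07 (SE 0.21, adjusted p = 0.839). NRG4 was higher in WNK2 trans Sor than in WT Sor (1.10, SE 0.27, adjusted p = 0.00307) and differed by 0.40 in WNK2- Sor (SE 0.27, adjusted p = 0.246). NRG3 held 0 to 20 reads a library and passed in none of the 12 comparisons, and EPGN, with 0 to 9 reads, was not tested.

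ERRFI1, the feedback inhibitor, had the highest level of the 9 genes per length of exon. It was lower in WNK2- cells. The libraries labelled WT Ctr held 3459, 4266, 4233 and 3803 normalised counts, WT Sor 6031, 5692, 5911 and 6147, WNK2- Ctr 2904, 2775, 2973 and 2992 and WNK2- Sor 3782, 3382, 4018 and 3671. The libraries labelled WNK2 trans Ctr held 6371, 6247, 5953 and 6729 and WNK2 trans Sor 4796, 5353, 5465 and 5106. All 8 WNK2- libraries were under the lowest WT Sor, WNK2 trans Ctr and WNK2 trans Sor libraries, whereas WNK2- Sor overlapped WT Ctr.

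The log2 fold change of ERRFI1 was −0.44 for WNK2- Ctr against WT Ctr (SE 0.08, adjusted p = 5.73e-05), −1.12 against WNK2 trans Ctr (SE 0.08, adjusted p = 1.04e-11) and −0.68 for WNK2- Sor against WT Sor (SE 0.08, adjusted p = 6.41e-08), and −0.48 against WNK2 trans Sor (SE 0.08, adjusted p = 2.42e-05). Sorbitol raised it by 0.59 in WT cells (SE 0.08, adjusted p = 4.76e-06) and by 0.35 in WNK2- cells (SE 0.08, adjusted p = 0.00204), and the interaction of −0.24 did not pass (SE 0.11, adjusted p = 0.171). The WT call depends on which isotonic group is taken, since WT Sor differed from WNK2 trans Ctr by −0.09 (SE 0.08, adjusted p = 0.489). ERRFI1 was 1.61-fold higher in WNK2 trans Ctr than in WT Ctr (log2 fold change 0.68, SE 0.08, adjusted p = 6.74e-07) and fell by 0.29 between WNK2 trans Ctr and WNK2 trans Sor (SE 0.08, adjusted p = 0.00315). The sorbitol effects in transfected and untransfected cells therefore differed by −0.88 (SE 0.11, adjusted p = 5.78e-07). Between WNK2 trans Sor and WT Sor it was −0.20 (SE 0.08, adjusted p = 0.0489). That call was lost in 15 of 31 alternatives (adjusted p 0.0285 to 0.11), 10 of them with 1 library left out: any WT Sor library, WNK2 trans Ctr replicate 2, WNK2 trans Sor replicate 1, 2 or 4, or WNK2- Sor replicate 1 or 4. An antisense gene, ENSG00000284747, overlaps ERRFI1 by 909 bases and held 14 to 119 reads a library. Whether reads were counted by strand is not given in the sources used here, so reads of the overlap cannot be assigned to either gene. EGFR-AS1, antisense to EGFR, held 0 reads in every library, and no annotated gene overlaps HBEGF, AREG, EREG or BTC.

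Per kilobase of exon the order of mean levels in the libraries labelled WT Ctr was ERRFI1 (941 normalised counts per kb), EGFR (104), HBEGF (93.8), TGFA (77.8), NRG1 (22.1), ERBB3 (11.0), AREG (9.83), EREG (3.55) and BTC (0). In WT Sor it was ERRFI1 (1420.3), EGFR (170.1), HBEGF (109.8), TGFA (93.8), AREG (34.7), NRG1 (31.4), ERBB3 (8.63), EREG (3.74) and BTC (0.181). In WNK2- Sor it was ERRFI1 (887), HBEGF (503), EGFR (185), NRG1 (100.2), TGFA (53.2), AREG (42.9), EREG (11.3), ERBB3 (2.26) and BTC (0.643). HBEGF stood below EGFR in WT Sor and above it in WNK2- Sor, and NRG1 below and above TGFA. In WNK2 trans Sor, of WT genotype, HBEGF (232) also stood above EGFR (169) and NRG1 (96.5) above TGFA (60.6). Within a gene, groups that stood next to each other in the order of means often overlapped, which held for all 5 neighbouring pairs of BTC and ERBB3 and for 4 of 5 pairs of AREG, EREG, TGFA and EGFR. Of the 5 neighbouring pairs 4 were apart for HBEGF (all but WT Ctr and WT Sor).

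The rest of the pathway was read from 4 lists of genes taken from textbook knowledge, with earlier results of these data known. Of 10 genes for sheddases and their regulators, 9 were tested, and 6 were called between WNK2- Ctr and WT Ctr (4 higher, 2 lower), beside 42.1% of all genes, and 5 between WNK2- Sor and WT Sor (3 higher, 2 lower), beside 46.3%. Between WNK2- Sor and WNK2 trans Sor 4 were called (2 higher, 2 lower), beside 33.3%. WNK2- Ctr against WNK2 trans Ctr gave 5 (3 higher, 2 lower), beside 47.7%. The median log2 fold changes were 0.06 against WT Ctr and 0.17 against WT Sor, beside 0.00 and 0.02 over all genes. They were 0.28 against WNK2 trans Ctr and 0.14 against WNK2 trans Sor. ADAM17, the main protease that releases HBEGF, AREG, EREG and TGFA, was lower in WNK2- cells in both media (−0.63, SE 0.14, adjusted p = 0.00102, and −0.72, SE 0.14, adjusted p = 0.000194), and also against WNK2 trans Sor (−0.60, SE 0.14, adjusted p = 0.00222). ADAM19, a protease that can cleave neuregulin precursors, was higher than in WT Ctr and WT Sor (1.23, SE 0.11, adjusted p = 3.28e-09, and 0.76, SE 0.11, adjusted p = 4.45e-06) and differed by 0.25 from WNK2 trans Sor (SE 0.11, adjusted p = 0.081). Sorbitol in WT cells called 3 of the 9 genes, beside 24.1% of all genes, and sorbitol in WNK2- cells 1, beside 14.9%.

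Of 24 genes for adaptors and for the RAS, ERK, PI3K and STAT branches, all were tested, and 8 were called between WNK2- Ctr and WT Ctr (3 higher, 5 lower), beside 42.1% of all genes, and 11 between WNK2- Sor and WT Sor (4 higher, 7 lower), beside 46.3%, with medians of 0.01 and −0.01. Against WNK2 trans Sor 6 were called (3 higher, 3 lower), beside 33.3%. WNK2- Ctr against WNK2 trans Ctr gave 8 (3 higher, 5 lower), beside 47.7%, with a median of 0.01. STAT3, a transcription factor downstream of the receptor, fell by 0.55 (SE 0.06, adjusted p = 7.46e-08) and 0.59 (SE 0.06, adjusted p = 1.28e-08) in the first pair of comparisons and by 0.33 against WNK2 trans Sor (SE 0.06, adjusted p = 0.000144). GAB2, a docking protein, was the adaptor with the largest sorbitol change in each background: 1.32 in WT (SE 0.19, adjusted p = 1.98e-05), 1.34 in WNK2- (SE 0.19, adjusted p = 1.3e-05) and 1.29 between the transfection labels (SE 0.19, adjusted p = 3.57e-06). Of the 24 genes, 2 were called with sorbitol in WT cells, beside 24.1% of all genes, and 3 in WNK2- cells, beside 14.9%.

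Negative regulators of the receptor and of ERK made up a list of 19 genes, with 18 tested. Between WNK2- Ctr and WT Ctr 10 were called (3 higher, 7 lower), beside 42.1% of all genes (21.5% lower), with a median of −0.22. Between WNK2- Sor and WT Sor 12 were called (2 higher, 10 lower), beside 46.3% of all genes (22.7% lower), with a median of −0.40 beside 0.02 over all genes. Between WNK2- Sor and WNK2 trans Sor 12 were called (2 higher, 10 lower), beside 33.3% (17.0% lower), with a median of −0.37. WNK2- Ctr against WNK2 trans Ctr gave 11 (1 higher, 10 lower), beside 47.7% (23.7% lower), with a median of −0.42. SPRY1, a Sprouty inhibitor of receptor signalling, had 467 to 617 reads in WT Ctr but 19 to 55 in WNK2- Ctr. Under sorbitol it had 1008 to 1377 reads in WT cells but 12 to 18 in WNK2- cells. It was lower by −4.52 (SE 0.16, adjusted p = 1.92e-16) in isotonic media and by −6.80 (SE 0.18, adjusted p = 1.2e-19) under sorbitol, and by −4.88 (SE 0.18, adjusted p = 2.37e-16) against WNK2 trans Sor. In the libraries labelled WNK2 trans Ctr it was 1.68 higher than in WT Ctr (SE 0.13, adjusted p = 9.09e-10) and in WNK2 trans Sor it was lower than in WT Sor (log2 fold change −1.92, SE 0.13, adjusted p = 3.79e-11). SPRY2 and LRIG3, a membrane protein, fell by 0.85 (SE 0.12, adjusted p = 2.43e-06) and 1.53 (SE 0.11, adjusted p = 6.78e-11) in WNK2- Ctr.

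Of 20 target genes of ERK signalling, 16 were tested, and the list includes ERRFI1. Between WNK2- Ctr and WT Ctr 13 were called (5 higher, 8 lower, median −0.20), beside 42.1% of all genes, and between WNK2- Sor and WT Sor 12 (5 higher, 7 lower, median −0.10), beside 46.3%. Between WNK2- Sor and WNK2 trans Sor 11 were called (3 higher, 8 lower, median −0.48), beside 33.3%. WNK2- Ctr against WNK2 trans Ctr gave 12 (5 higher, 7 lower, median 0.01), beside 47.7%. The called genes went both ways. EGR1 fell by 2.39 (SE 0.22, adjusted p = 3.44e-09) and 4.93 (SE 0.25, adjusted p = 2.51e-14) in the first pair of comparisons, and FOS by 2.11 (SE 0.24, adjusted p = 1.11e-07) and 3.96 (SE 0.25, adjusted p = 1.85e-12). FOSL1, another gene of the FOS family, was higher by 1.65 (SE 0.21, adjusted p = 5.63e-07) and 1.55 (SE 0.21, adjusted p = 8.67e-07). CCND1, cyclin D1, was higher by 1.56 (SE 0.12, adjusted p = 2.23e-10) and 2.08 (SE 0.13, adjusted p = 7.69e-13). Against WNK2 trans Sor, EGR1 was lower by −3.48 (SE 0.24, adjusted p = 1.82e-11), FOS by −3.31 (SE 0.25, adjusted p = 8.57e-11) and CCND1 higher by 0.49 (SE 0.12, adjusted p = 0.00286), while FOSL1 differed by 0.34 (SE 0.20, adjusted p = 0.21). CCND1 was also higher in WNK2 trans Sor than in WT Sor (1.59, SE 0.12, adjusted p = 4.74e-10), where 12 of the 16 were called (7 higher, 5 lower), beside 31.7% of all genes.

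With sorbitol 4 of these 16 genes were called in WT Sor against WT Ctr (3 higher, 1 lower), beside 24.1% of all genes, with FOS and EGR1 higher by 1.54 (SE 0.22, adjusted p = 2.05e-05) and 0.92 (SE 0.21, adjusted p = 0.00213). Against WNK2 trans Ctr, 4 were also called in WT Sor, all higher, beside 15.1%, and there FOS was higher by 1.10 (SE 0.22, adjusted p = 0.000892) while EGR1 differed by 0.46 (SE 0.21, adjusted p = 0.146) with overlapping groups. In WNK2- cells 7 of the 16 were called (5 higher, 2 lower), beside 14.9%. EGR1 fell there by 1.61 (SE 0.23, adjusted p = 1.8e-05), and PLAUR, the urokinase receptor, rose by 0.62 (SE 0.10, adjusted p = 9.44e-05). Of the listed genes and markers, 7 were at 0 in every library, all of them under another annotated gene, so a 0 there does not show that the RNA was absent.

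**Figure D4:**
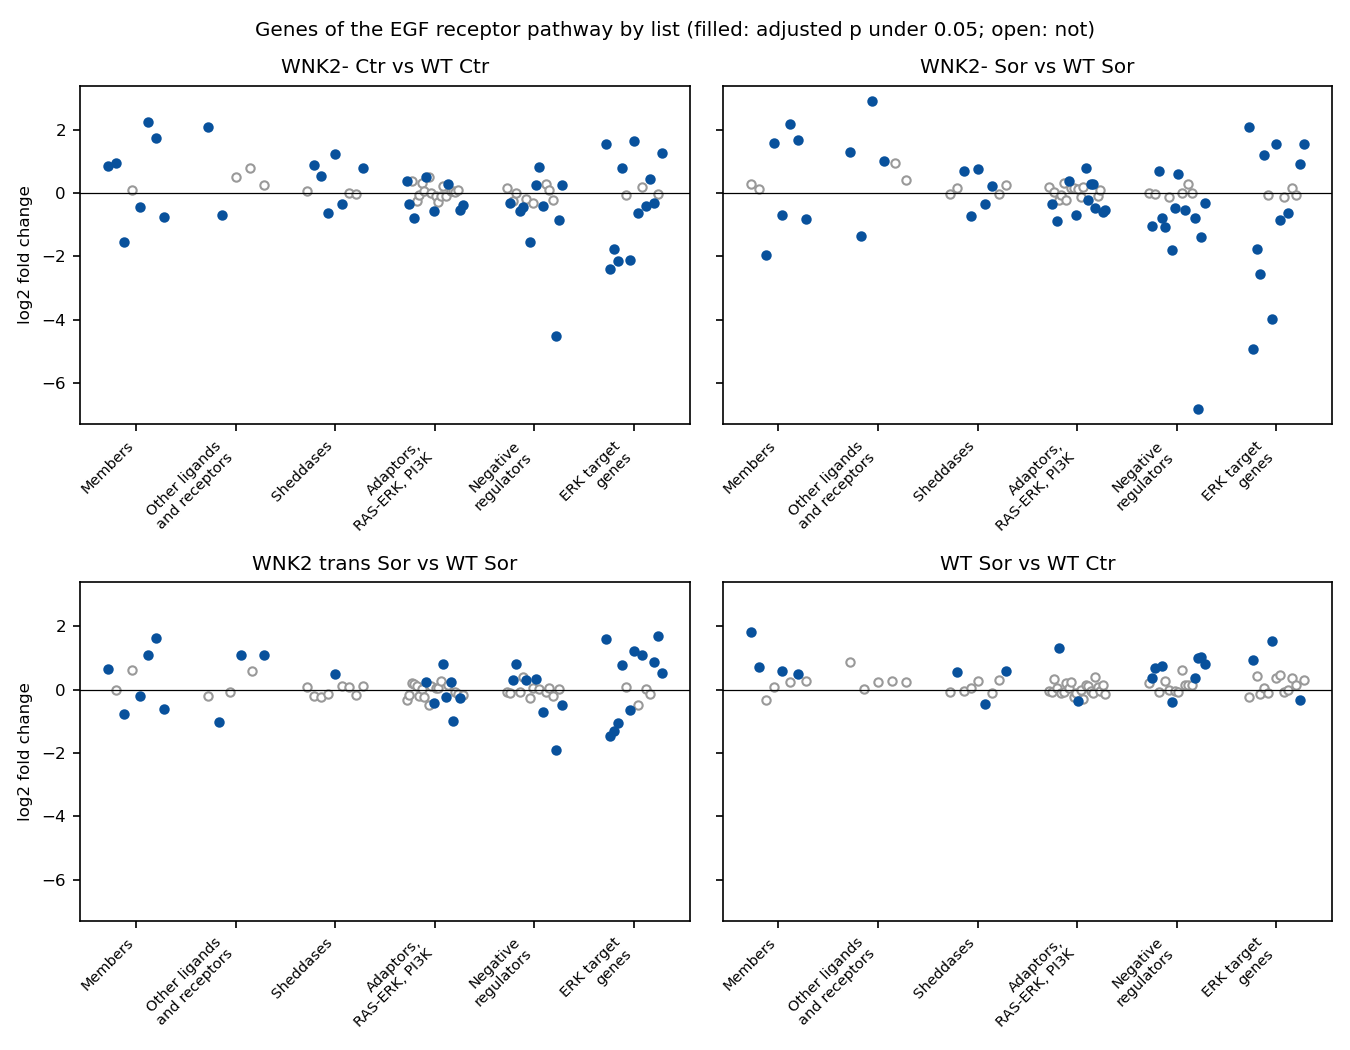
Log2 fold changes of the tested genes of each list in 4 comparisons, a point for each gene; filled points had an adjusted p under 0.05, and ERBB4, with no read in WT Ctr, is not drawn in the comparisons with WT Ctr. SPRY1 and EGR1 are the 2 lowest points between WNK2- and WT cells in either medium, and GAB2 is the highest adaptor with sorbitol in WT cells.

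Genes with a mean of 2 or more on the log2 CPM scale, a count scaled by library size, were ranked by how closely they followed each member, as Pearson's r over the 24 libraries. For HBEGF they were CAV1, NEXN and ANKRD1 (r = 0.99, 0.98 and 0.98) and for NRG1 SH3RF1, KCNMA1 and ADAMTS6 (0.99, 0.98 and 0.98). For EGFR they were SLC7A1, LRP8 and UVSSA (0.96, 0.94 and 0.93), and with group means removed LRP8 still had an r of 0.93. Removing group means left 0.49 for CAV1, −0.09 for NEXN and 0.14 for ANKRD1 with HBEGF. It left 0.83 for SH3RF1, 0.73 for KCNMA1 and 0.73 for ADAMTS6 with NRG1. TGFA was followed by KLHL24, RBM47 and ADAM22 (0.96, 0.94 and 0.94), ERBB3 by FAM131B, PGAP3 and SALL2 (0.92 each) and ERRFI1 by ATP1B1, PAPPA and SERINC1 (0.95, 0.95 and 0.94). With r of 0.90 for ITPRIP the best match of AREG was weaker, as was that of EREG, SEC22B at 0.84. Once group means were removed, ITPRIP had an r of 0.12 and SEC22B of 0.34. These libraries share 6 group means, and r is a description of their likeness.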

How the data were processed

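RNA was poly(A)-selected and made into libraries with a NEBNext Ultra kit. The submitters' notes and methods name HISAT2 2.2.1 for alignment to GRCh38 and HTSeq 2.0.2 for counting, and whether strand was used is not given in the sources used here. The authors deposited 24 tables of raw counts per gene, 1 for each library, which were used as deposited. Reads in a library totalled 14153002 to 25664619, and counting error is widest for BTC, AREG, EREG and ERBB3. Groups came from the labels. The filterByExpr function of edgeR (at least 10 counts, total 15) left 16600 of 62703 identifiers. Quasi-likelihood models with 6 group means were fitted in edgeR 4.0.16 (limma 3.58.1, R 4.3.3) after TMM scaling, with 12 contrasts, and p-values were adjusted by the Benjamini-Hochberg method over all tested genes at a threshold of 0.05, where the standard error is the log2 fold change over the square root of F. The fit was tested on simulated counts. Alternatives were RLE and upper-quartile scaling, no filter or at least 10 counts in every library, a replicate block, the compared groups alone, DESeq2 1.42.0, each library left out and, added after the data were seen, WNK2 trans Sor in place of WT Sor. A library was compared with its replicates, and no library was a duplicate, with chi-square per degree of freedom from 2.24 to 60.8. Positions and exon lengths came from GENCODE 29, and motifs were searched in the RefSeq promoter table. Tables and plots were made with Python 3.11.15 (pandas 2.3.3, numpy 2.4.6, matplotlib 3.10.9).

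The 9 genes and the rest of the family (EGF, EPGN, NRG2, NRG3, NRG4, ERBB2 and ERBB4) were named in any case. From each other list, up to 4 genes a comparison could be named, those with the largest absolute log2 fold changes among called genes whose groups did not overlap, and further values of these genes are given beside them. The 9 genes and all lists were chosen with earlier results of these data known.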

Additional observations from a re-analysis of the deposited data

Results flagged for a closer look

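The sorbitol effect differed between transfected and untransfected cells for 4 of the 8 tested genes by an interaction term in edgeR's quasi-likelihood fit: the difference was 1.61 on the log2 scale for HBEGF, 2.03 for NRG1, −0.72 for TGFA and −0.88 for ERRFI1. All 4 rest on the libraries labelled WT Ctr, WT Sor, WNK2 trans Ctr and WNK2 trans Sor, whose WNK2 counts put their labels in doubt. Between genotypes the sorbitol effect differed for EGFR, by −0.81, and this value uses the libraries labelled WT Ctr and WT Sor.

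In 3 of 53 groups with any spread, 1 library stood far from the other 3, where chance gives about 1 in 20 groups. For BTC the gap over the range was 1.0 in WT Sor and 1.0 in WNK2 trans Ctr, since 1 library held reads and the others none. Such counts always give 1.0, so the rate of 1 in 20 does not apply to BTC. For NRG1 in WNK2 trans Ctr it was 0.90, with a lowest library of 155 normalised counts beside 196 to 201 in the others.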

How the results depend on the processing

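Of 2960 alternative values of the 8 tested genes, 2838 kept direction and side of the threshold, 95 lost the call, 8 gained it and 19 reversed, and 74 of 96 results kept their side in every alternative. With the compared groups alone, 4824 genes were called in WNK2- Sor against WNK2- Ctr (2473 with all groups), 747 in WNK2 trans Ctr against WT Ctr (2082), with 1 of the 8 genes, and 3018 in WNK2 trans Sor against WT Ctr (6509). The genotype interaction called 1436 genes, and 849 to 1908 with 1 library left out, among them 944 without WNK2- Ctr replicate 2 and 849 without WNK2- Sor replicate 3. Of the 8 genes it called 2 (EGFR and EREG) with the compared groups alone, 2 with DESeq2, and 1 to 2 with 1 library left out. With at least 10 counts in every library, WNK2- Sor against WNK2- Ctr called 2 of the 8, since low genes were not tested. WNK2 trans Sor against WT Sor called 3 with the replicate block and 3 to 6 with 1 library left out.

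With WNK2 trans Sor in place of WT Sor, chosen after seeing the data, WNK2- Sor lost the calls of NRG1 (0.05) and TGFA (−0.19), and AREG reversed to −0.36. Reversals touched values that were not called. EGFR in WNK2 trans Sor against WT Sor became 0.0037 with RLE scaling, 0.021 with upper-quartile scaling, 0.00051 with at least 10 counts in every library and 0.0036 with DESeq2, and ran from −0.098 to 0.039 with 1 library left out. The ranges with 1 library left out were −0.14 to 0.0050 for HBEGF and −0.18 to 0.038 for NRG1 (genotype interaction), −0.13 to 0.40 for AREG (transfection interaction), −0.28 to 0.081 for ERBB3 in WNK2 trans Ctr against WT Ctr, and for EREG −0.089 to 0.31 in WT Sor against WT Ctr and −0.11 to 0.29 in WNK2- Ctr against WT Ctr. With group means removed, libraries of the same number had an r of −0.29 to 0.46 (median 0.013). Libraries of other numbers had −0.32 to 0.39 (median 0.001). Of 24 libraries, 11 correlated best with their own number among the 4. Whether the numbers pair the libraries is not settled by these values, and the main fit did not pair them. Causes were not tested. Depth limits BTC, EREG, AREG, ERBB3 and ERBB4.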
